A study of Rattus norvegicus with 65 samples.

Results

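The PYY3-36 group of the second experimental period, batch B, was compared with the sham-operated group of the same period. The 2 groups held 4 and 6 rats, 10 of the 65 animals of the series, with 1 RNA-seq library of whole hypothalamus per rat, chosen by the group and batch in the sample titles. All were male Wistar rats, 9 to 10 weeks old on arrival, made obese by 6 weeks of high-fat feeding after which fatty and lean chow were both on offer. PYY3-36-treated rats received 0.1 mg/kg/day of the peptide from an osmotic minipump under the skin together with saline injections. Sham-treated rats had a sham operation, with no pump or injections mentioned in the methods. Hypothalami were taken after 4 weeks and 10 h of fasting. Operation, pump and injections therefore cannot be told apart from the peptide in this comparison. The saline-treated rats of batch B (5 animals), which carried the same pump and received the same injections without peptide, are set beside it. A further PYY3-36-treated rat, not analysed here, was excluded in the study for an extraction error.

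PYY3-36 is the truncated form of peptide YY that L-cells of the gut release after a meal. It binds preferentially to the Y2 receptor, which sits on Npy/Agrp neurons of the arcuate nucleus and restrains them, and given from outside it reduces food intake. The hypothalamus weighs such signals against leptin and insulin and acts through peptide neurons, among them those of Npy and Agrp, which drive feeding, of Pomc and Cartpt, which restrain it, and of Crh, Trh, Sst, Avp and Oxt, which control the pituitary.

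The libraries held 21975005 to 26937463 counts on genes in the PYY3-36 group and 20040821 to 22967376 in the sham group (exact two-sided permutation test, p = 0.0286, n = 4 and 6). Mitochondrial rRNA and tRNA took 1.09% to 1.58% of the counts in the PYY3-36 group and 1.27% to 3.19% in the sham group (exact two-sided permutation test, p = 0.019). Tissue markers set single libraries apart. Transcripts of the peptides Pmch and Oxt were low in PYY3-36 rat 2 and in sham rats 6 and 10. Pmch of the lateral hypothalamus measured 1.35, 3.34 and 5.01 there, in counts scaled to a common library size (CPM, normalised by the trimmed mean of M-values, as are all levels below), against 128 to 2344 CPM in the other 7 rats. Oxt of the magnocellular nuclei measured 5.32, 0.0522 and 27.2 CPM in the same 3 rats and 105 to 1943 CPM in the others. The summed hypothalamic nucleus transcription factors (28 genes) were lowest in PYY3-36 rat 2 at 162 CPM and highest in sham rats 6 and 10 at 413 and 407 CPM, with 229 to 361 CPM in the other 7. Summed striatal markers reached 6614 and 7065 CPM in sham rats 6 and 10 and 529 to 1696 CPM in the other 8. Cortical and hippocampal markers were highest in PYY3-36 rat 2 at 2288 CPM. Sham rats 6 and 10 followed at 1352.5 and 1485.6 CPM, with 287 to 723 CPM in the other 7. Pituitary markers reached 184 and 440 CPM in PYY3-36 rats 1 and 3 against 4.7 to 20.5 CPM in the other 8. Values that rest on these libraries are also given without them. In bulk tissue, fewer cells of a type and less RNA per cell cannot be told apart.

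**Figure D1:**
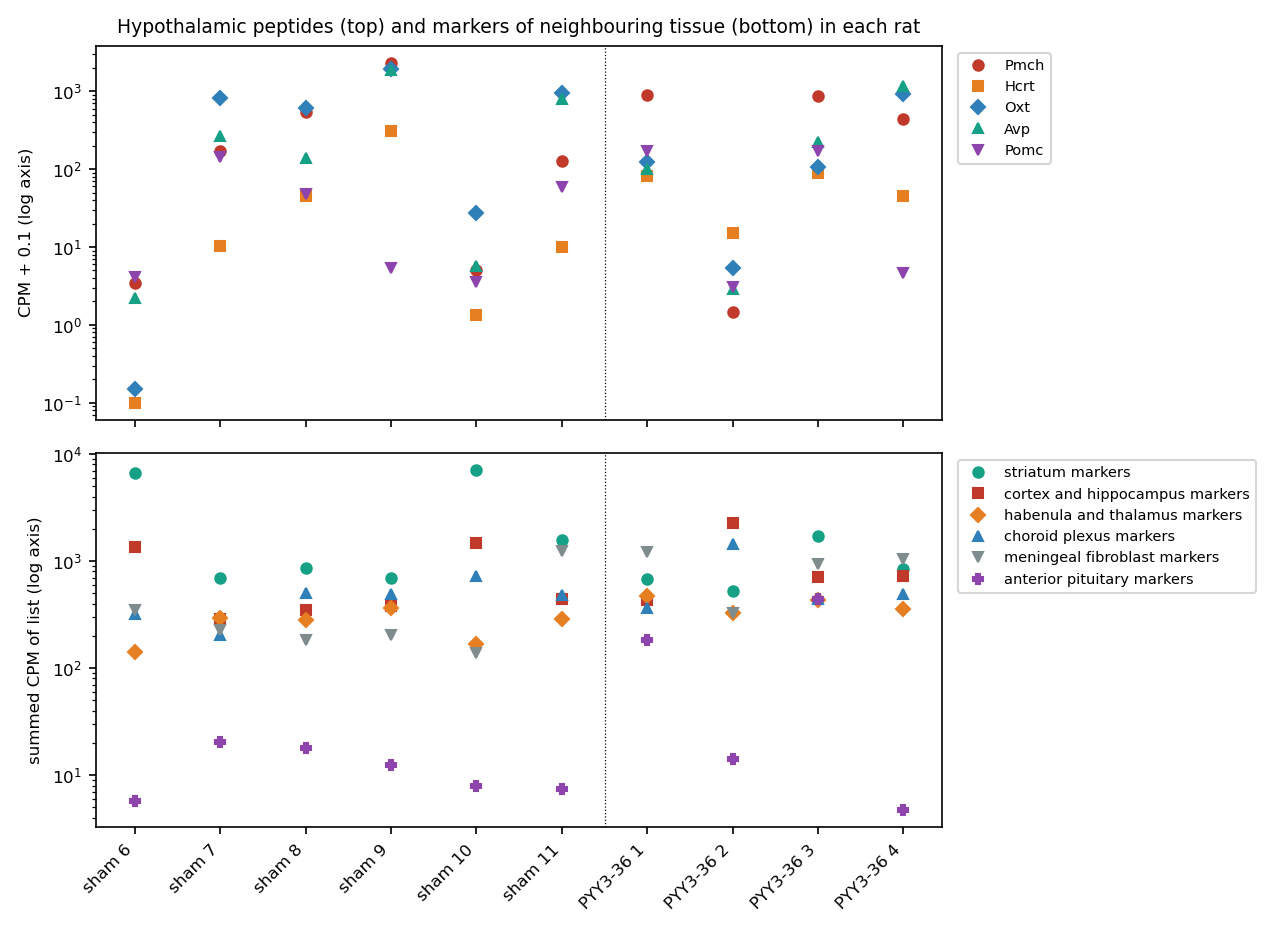
Level of 5 hypothalamic peptide transcripts (upper panel, CPM plus 0.1, log axis) and summed level of 6 lists of markers of neighbouring tissue (lower panel, CPM, log axis) in each of the 6 sham and 4 PYY3-36 rats. Pmch and Oxt are low in PYY3-36 rat 2 and in sham rats 6 and 10, and the 2 sham rats carry the highest striatal sums, 6614 and 7065 CPM.

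Against sham, PYY3-36 rats showed far more genes at a higher level by more than 2-fold than at a lower level, while smaller changes went mostly down. Of 20628 genes tested, 572 (2.77%) were higher and 50 (0.242%) lower by more than 2-fold (beyond 1 on the log2 scale) with an adjusted p below 0.05. Genes past both are called regulated here. The study used like thresholds on DESeq2 fold changes after shrinkage, and with such fold changes 193 genes were higher and 5 lower. With the adjusted p alone, 1302 genes (6.31%) rose and 1599 (7.75%) fell. The levels of the 4 PYY3-36 rats lay above those of all 6 sham rats in 1060 genes (5.14%) and below them in 1274 (6.18%). The median log2 fold change over all genes was 0.004. Without PYY3-36 rat 2, sham rats 6 and 10 and 2 saline rats with equally low Pmch, 413 genes were regulated upwards and 29 downwards. The counts were 312 and 32 when all 65 libraries shared 1 estimate of spread, 242 and 21 with the mean of sham and saline as controls, and 30 and 0 when the share of mitochondrial rRNA and tRNA was a covariate.

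**Figure D2:**
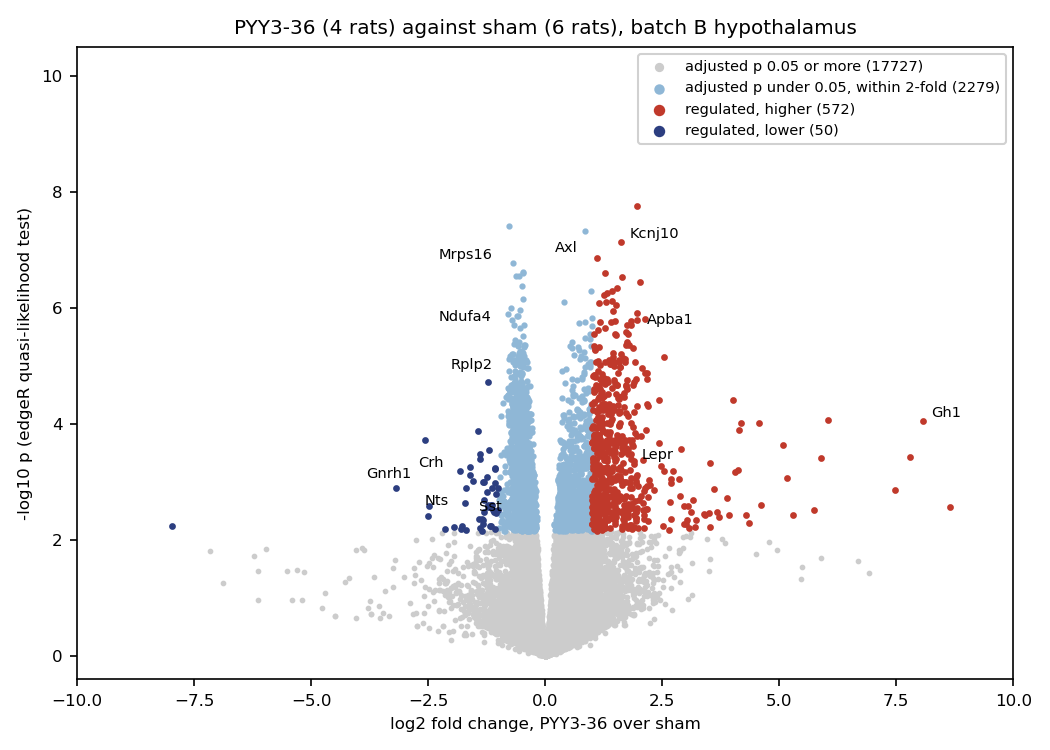
Log2 fold change of PYY3-36 over sham (x axis) against −log10 p of the edgeR test (y axis) for the 20628 genes tested, 1 point per gene. The 572 regulated genes with higher levels (red) outnumber the 50 with lower levels (dark blue), while many genes with adjusted p under 0.05 lie within 2-fold (light blue).

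The 12 genes named by p value were picked from the genes regulated upwards without overlap between the groups. No overlap and a higher level in PYY3-36 rats were therefore terms of the choice. Kcnj10, the inward rectifier Kir4.1 through which astrocytes take up potassium (chr13:90722945-90753338, plus strand), measured 40.3, 65.2, 59.4 and 49.8 CPM in PYY3-36 rats 1 to 4 and 12.9 (lowest), 18.2 (median) and 20.1 (highest) CPM in the sham rats. The lowest PYY3-36 rat lay above the highest sham rat (log2 fold change 1.62 ± 0.22 (SE), adjusted p = 0.000372). Axl, a receptor tyrosine kinase by which phagocytes and glia recognise dying cells (chr1:82550892-82580761, minus strand), measured 34.5, 28.9, 37.8 and 28.8 CPM against 12.8 (lowest), 15.4 (median) and 17.2 (highest) CPM (log2 fold change 1.1 ± 0.15 (SE), adjusted p = 0.000504). As the choice required, no PYY3-36 rat fell within the sham range. Scarb2, a lysosomal membrane protein, stood at 86, 116, 97.9 and 96.2 CPM and in the sham group at 28.9 to 55.8 CPM (median 39.2), a 2.48-fold difference (log2 fold change 1.31 ± 0.20 (SE), adjusted p = 0.000625). Apba1, an adaptor that binds the amyloid precursor protein at synapses, had the highest fold of the 12 named by p value, 3.88, with 40.2, 37.2, 58.4 and 54.5 CPM against 8.76 to 17 CPM (median 12.2) (adjusted p = 0.000875). The cation channel gene Trpm3 rose as well (1.41 ± 0.21, adjusted p = 0.000625), as did Epas1, which encodes the hypoxia-inducible factor HIF-2α (1.15 ± 0.18, adjusted p = 0.000707), and Clic4, an intracellular chloride channel (1.29 ± 0.20, adjusted p = 0.000707). Beside Acaca, described below, the remaining 4 of the 12 were Megf9 (1.53), the ceramide synthase Cers4 (1.28), the splicing regulator Mbnl1 (1.42) and Scd4, a stearoyl-CoA desaturase (1.51), which belongs to a family of closely related copies whose reads are shared as fractions.

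The medians of the saline-treated rats lay between those of the groups for the 4 genes given next. Kcnj10 measured 18.6 to 34.5 CPM (median 27.6) there, Axl 14.4 to 21.8 CPM (median 18.4), Scarb2 40.7 to 75.4 CPM (median 62.3) and Apba1 19.4 to 55.9 CPM (median 26.4). Over the 572 genes regulated upwards, a set chosen by PYY3-36 against sham, the median log2 fold change was 1.41 for PYY3-36 over sham, 0.77 for saline over sham and 0.65 for PYY3-36 over saline. Over the 50 regulated downwards, the medians were -1.325, -0.52 and -0.87. These comparisons share their animals, so the values are given side by side and no agreement is read from them. Against saline, edgeR called 0 of 20628 genes (0%) for PYY3-36 at an adjusted p under 0.05, with the smallest adjusted p at 0.052 and 3251 genes at an unadjusted p under 0.05. DESeq2 called 174 genes higher and 270 lower in the same contrast, 82 of them over the fold threshold. Saline against sham gave 2 genes (0.0097%), Vti1a and Nwd2, of which Nwd2 was also over the fold threshold, and 2896 genes at an unadjusted p under 0.05. Without saline rat 8, this contrast held 109 genes regulated upwards and 11 downwards, and without sham rat 7 it held 31 and 3.

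**Figure D3:**
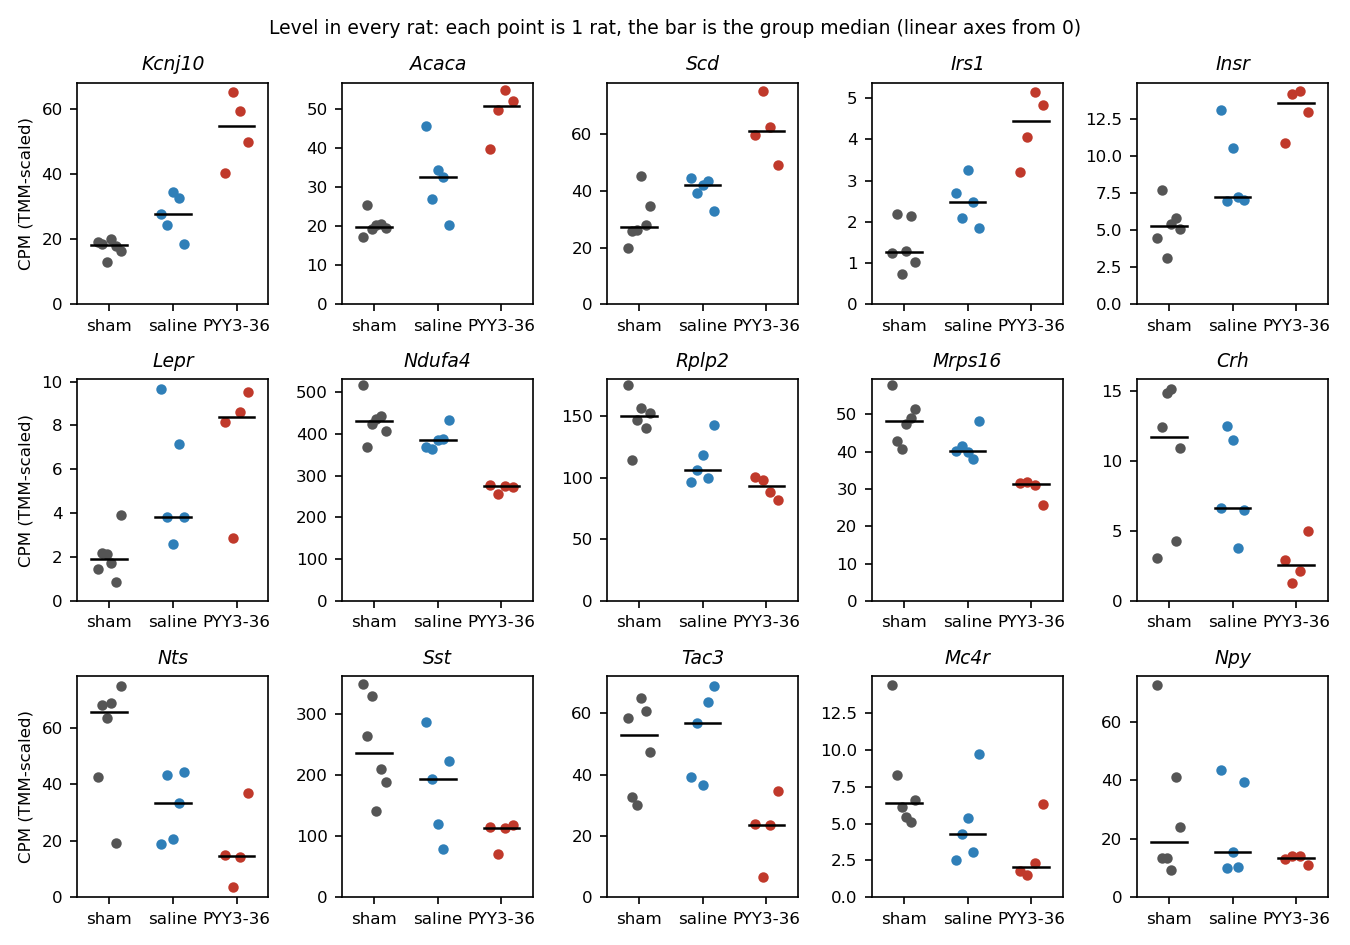
Level of 15 genes in CPM (y axes, linear from 0) in each of the 6 sham, 5 saline and 4 PYY3-36 rats of batch B. Points are rats and bars are group medians, and Kcnj10, Acaca, Scd, Irs1, Insr, Ndufa4, Rplp2, Mrps16 and Sst show no overlap between PYY3-36 and sham.

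Cholesterol and fatty acid synthesis was the metabolic list with the highest share of higher genes. Of 24 members tested, 9 rose and 0 fell, beside 6.31% and 7.75% of all genes tested. A positive log2 fold change was seen in 23, and the median was 0.35 beside 0.004 over all genes. Acaca, the acetyl-CoA carboxylase that commits carbon to fatty acids (chr10:71519392-71719910, plus strand), measured 39.6, 49.6, 54.7 and 51.9 CPM against 17.2 (lowest), 19.9 (median) and 25.4 (highest) CPM in sham rats (log2 fold change 1.26 ± 0.19 (SE), adjusted p = 0.000659). No PYY3-36 rat fell within the sham range. Scd, the main stearoyl-CoA desaturase, measured 59.9, 75.3, 62.6 and 49 CPM against 19.8 to 45.2 CPM (median 27.2), without overlap (log2 fold change 1.04 ± 0.17 (SE), adjusted p = 0.00106). Lss, Fasn, Elovl6, Hmgcs1 and Srebf2 were among the other members that rose. Over saline the list median was 0.18, with 8 of 24 genes at an unadjusted p under 0.05, all higher, and 0 past the adjusted threshold. With the share of mitochondrial rRNA and tRNA as a covariate, 3 members of the list rose, and without the 5 libraries low in Pmch 5 did.

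The lists with the most genes that fell were housekeeping genes of ribosome, respiratory chain and proteasome, by modest amounts. Of 38 nuclear subunits of complex I, which feeds electrons from NADH into the chain, 35 fell (92.1%) and 0 rose, with a median log2 fold change of -0.50. Of 40 nuclear subunits of complexes II to V, 32 fell (80.0%, median -0.49). Of 77 cytosolic ribosomal proteins, 70 fell (90.9%, median -0.52), and of 72 mitochondrial ribosomal proteins, 50 fell (69.4%, median -0.40). Proteasome subunits fell in 14 of 31 cases (45.2%, median -0.23). No gene of these 5 lists rose or passed the fold threshold, and 7.75% of all genes tested fell. Many of them have near-identical processed copies in the genome, among which the counting split shared reads, so single ribosomal protein values are uncertain.

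Ndufa4, a small subunit of the respiratory chain (chr4:38233680-38240848, minus strand), measured 278, 257, 276 and 272 CPM in the PYY3-36 rats and 369 (lowest), 429.9 (median) and 517 (highest) CPM in the sham rats (log2 fold change -0.68 ± 0.11 (SE), adjusted p = 0.000898). The highest PYY3-36 rat lay well under the lowest sham rat. Mrps16 of the small mitochondrial ribosomal subunit (chr15:4351292-4353694, plus strand) measured 31.7, 32, 31 and 25.6 CPM against 40.7 (lowest), 48.2 (median) and 57.8 (highest) CPM (log2 fold change -0.68 ± 0.10 (SE), adjusted p = 0.000504). Rplp2 of the ribosomal stalk (chr1:214428280-214430551, plus strand) measured 101, 97.7, 88.4 and 81.5 CPM against 114 (lowest), 150 (median) and 175 (highest) CPM (log2 fold change -0.68 ± 0.12 (SE), adjusted p = 0.0014). Neither overlapped between the groups. Further members with the smallest p were the complex I subunits Ndufb7 (-0.76), Ndufa7 (-0.55) and Ndufs4 (-0.41), the ATP synthase genes Atp5i (-0.78), Atp5l (-0.64) and Atpif1, its inhibitor (-0.68), and Uqcrb of complex III (-0.67). In the ribosome they were Rpl11 (-0.61) and Fau (-0.61), in its mitochondrial counterpart Mrps34 (-0.62), Mrpl34 (-0.58) and Mrpl2 (-0.53), and in the proteasome Psmd4 (-0.49), Psma7 (-0.41), Psmb3 (-0.45) and Psmb2 (-0.37). The succinate dehydrogenase subunits Sdhb (-0.31 ± 0.09, adjusted p = 0.0184), Sdhc (-0.36 ± 0.09, adjusted p = 0.00933) and Sdhd (-0.41 ± 0.09, adjusted p = 0.00423) fell, the first of them not without PYY3-36 rat 2 (adjusted p = 0.0812) or rat 4 (adjusted p = 0.0729).

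Against saline, the same lists had medians of -0.34 for complex I, -0.39 for complexes II to V, -0.22 for cytosolic and -0.29 for mitochondrial ribosomal proteins. None of their genes passed the adjusted threshold there, while 35, 36, 17 and 48 genes were lower at an unadjusted p under 0.05, of 1826 such genes over the whole table. Saline against sham gave medians of -0.15, -0.11, -0.29 and -0.09.

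These groups moved with transcript length. The lists have median exon lengths of 615 to 1358 bases, beside 2675 bases over all genes tested. Over all genes, the median log2 fold change rose from -0.40 in the 1st of 10 equal bins of exon length (60 to 895 bases), where 29.8% fell, to 0.15 in the last bin (6997 bases and more), where 0.921% fell and 10.1% rose. Spearman's rho between length and log2 fold change across the 20628 genes, which are not independent, was 0.268 for PYY3-36 over sham, 0.168 for saline over sham and 0.188 for PYY3-36 over saline. With a scaling that removed the trend with length within each library, 521 genes were regulated upwards and 27 downwards. Under it the lists fell in 14 of 38 (complex I), 9 of 40 (complexes II to V), 19 of 77 (cytosolic ribosome), 26 of 72 (mitochondrial ribosome) and 2 of 31 cases (proteasome). The medians under it were -0.197 for complex I nuclear subunits, -0.165 for complexes II to V nuclear subunits, -0.180 for cytosolic ribosomal proteins, -0.213 for mitochondrial ribosomal proteins and -0.134 for proteasome subunits. With the share of mitochondrial rRNA and tRNA as a covariate, the calls were 1, 0, 1, 5 and 1, and the medians -0.336, -0.272, -0.206, -0.296 and -0.216. With 1 estimate of spread over all 65 libraries, the calls were 4, 3, 4, 13 and 0, while the medians were -0.513, -0.503, -0.528, -0.411 and -0.242. The part of RNA quality or of library preparation in these values was not tested.

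**Figure D4:**
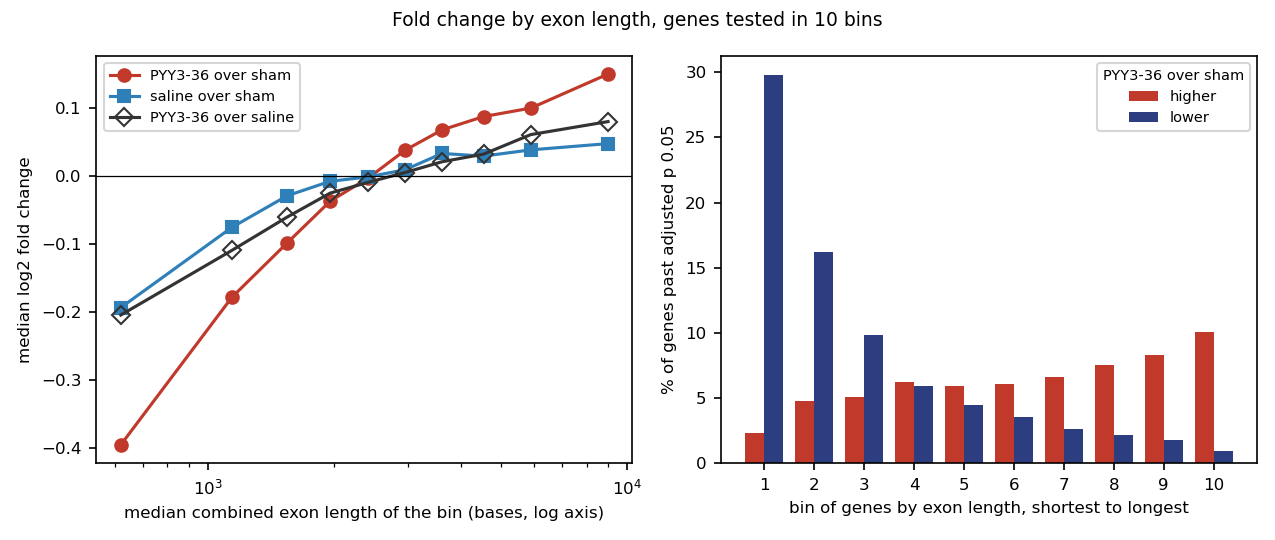
Left, median log2 fold change (y axis) by median exon length in bases (x axis, log) for 10 bins of the 20628 genes in 3 comparisons. Right, share of genes in each bin past adjusted p 0.05 in PYY3-36 over sham, where 29.8% of the shortest bin fell and 10.1% of the longest rose.

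Promoters of genes that moved together are shown because they can be set side by side. RefSeq promoter sequences of the rat build GRCr8, 250 bases before to 50 after the start, were matched by gene identifier for 13918 of the 20628 genes. In the 250 bases before the start, the ETS-type motif CCGGAAG on either strand was present in 52 of 209 promoters (24.9%) of the 5 housekeeping lists, in 0 of 16 of the lipid list and in 0 of 22 of the neuropeptide list, beside 12.5% of all 13918. The sequence CCAAT on either strand, which cannot share a base with the first motif on either strand, was present in 13 of 16 promoters (81.2%) of the lipid list, in 73 of 209 (34.9%) of the housekeeping lists and in 34.8% of all. Among all genes that fell, 20.8% held CCGGAAG and 36.2% CCAAT, and among all that rose 10.7% and 32.4%. A match describes letters only. The 150 bases before the start follow for 1 gene with CCGGAAG there from each of 4 housekeeping lists (capitals mark the motif, or its reverse complement).
Ndufb7 (chr19:41477292-41477441, minus strand): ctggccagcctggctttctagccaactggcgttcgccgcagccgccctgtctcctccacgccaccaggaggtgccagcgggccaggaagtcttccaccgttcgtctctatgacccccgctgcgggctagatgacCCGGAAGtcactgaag
Atp5i (chr14:1464710-1464859, plus strand): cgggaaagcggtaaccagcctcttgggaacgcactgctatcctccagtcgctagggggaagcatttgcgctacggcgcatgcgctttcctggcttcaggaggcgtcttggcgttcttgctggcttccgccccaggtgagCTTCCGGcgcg
Rplp2 (chr1:205975771-205975920, plus strand): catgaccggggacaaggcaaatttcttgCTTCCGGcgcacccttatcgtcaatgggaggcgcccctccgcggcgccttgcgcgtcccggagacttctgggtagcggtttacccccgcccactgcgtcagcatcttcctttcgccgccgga
Mrpl27 (chr10:80092195-80092344, plus strand): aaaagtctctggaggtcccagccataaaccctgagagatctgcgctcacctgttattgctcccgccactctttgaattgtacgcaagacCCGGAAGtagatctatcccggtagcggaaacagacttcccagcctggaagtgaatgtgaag
The same window is given for 3 genes of the lipid list that rose and hold CCAAT in it (capitals).
Lss (chr20:12118231-12118380, minus strand): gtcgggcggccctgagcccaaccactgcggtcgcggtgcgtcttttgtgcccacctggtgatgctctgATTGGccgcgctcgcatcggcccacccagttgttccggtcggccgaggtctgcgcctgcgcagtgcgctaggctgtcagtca
Hmgcs1 (chr2:53382154-53382303, plus strand): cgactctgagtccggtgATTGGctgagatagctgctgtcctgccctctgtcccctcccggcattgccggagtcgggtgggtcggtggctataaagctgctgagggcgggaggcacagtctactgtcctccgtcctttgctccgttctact
Srebf2 (chr7:115543157-115543306, plus strand): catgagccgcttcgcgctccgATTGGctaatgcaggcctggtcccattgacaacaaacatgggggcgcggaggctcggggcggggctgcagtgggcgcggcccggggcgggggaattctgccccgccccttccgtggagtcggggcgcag
Ndufb7, Atp5i and Rplp2 were described above, Mrpl27 fell by 0.52 on the log2 scale (adjusted p = 0.0014), and Lss, Hmgcs1 and Srebf2 rose by 0.91, 0.52 and 0.35 (adjusted p = 0.00218, 0.044 and 0.0463).

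Of 30 further neuropeptide genes tested, 6 fell by more than 2-fold, 0 rose, and the median was -0.50. Over all genes tested, 0.242% were regulated downwards and 6.31% rose. Crh, the releasing hormone of the stress axis, which also restrains feeding (chr2:104459999-104461863, minus strand), measured 2.93, 1.31, 2.13 and 4.97 CPM against 3.08 (lowest), 11.7 (median) and 15.1 (highest) CPM (log2 fold change -1.83 ± 0.47 (SE), adjusted p = 0.0114). PYY3-36 rat 4 lay within the sham range and the other 3 under it. Sst, somatostatin, which inhibits growth hormone release (chr11:80358172-80359449, plus strand), measured 115, 71.5, 113 and 118 CPM against 142 (lowest), 237 (median) and 349 (highest) CPM and the groups did not overlap (log2 fold change -1.24 ± 0.35 (SE), adjusted p = 0.0189). It did not pass without PYY3-36 rat 2 (log2 fold change -1.10, adjusted p = 0.0705). Nts, neurotensin, which lowers food intake (chr7:44111594-44120998, minus strand), stood at 14.9, 3.56, 14.4 and 36.8 CPM against 19.4 (lowest), 65.7 (median) and 74.8 (highest) CPM (log2 fold change -1.69 ± 0.46 (SE), adjusted p = 0.0171). The groups overlapped through 1 sham rat and PYY3-36 rat 4, and Nts did not pass without PYY3-36 rat 3 (adjusted p = 0.0537). Tac3, neurokinin B of the neurons that pace gonadotropin release (chr7:71023976-71030582, plus strand), stood at 23.8, 6.71, 23.6 and 34.8 CPM against 30.1 (lowest), 53 (median) and 65 (highest) CPM (log2 fold change -1.14 ± 0.31 (SE), adjusted p = 0.0172). Without the 5 libraries low in Pmch its difference was -0.69 (adjusted p = 0.126). Gnrh1 itself ranged from 0.893 to 20.1 CPM in sham rats and measured 0.509, 0.406, 0.844 and 2.38 CPM in PYY3-36 rats (log2 fold change -3.2 ± 0.88 (SE), adjusted p = 0.0172). It passed in no fit that left out PYY3-36 rat 1, 2 or 3 (adjusted p from 0.0517 to 0.0583).

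Penk, proenkephalin, which is abundant in striatum as well, measured 253, 49.8, 362 and 229.5 CPM against 296 (lowest), 443 (median) and 1694 (highest) CPM (log2 fold change -1.79 ± 0.59 (SE), adjusted p = 0.0438). The highest sham values belonged to rats 6 and 10, the 2 with the high striatal sums, to which Penk itself contributes. Without the 5 libraries low in Pmch the log2 fold change of Penk was -0.47 (adjusted p = 0.509). All 12 striatal markers tested, a list that includes Penk, had negative values (median -1.75). Penk was the 1 past the threshold, and 7.75% of all genes tested fell. Leaving out PYY3-36 rat 1, 2 or 4 or sham rat 6 or 10 each ended the call for Penk, with adjusted p from 0.0766 to 0.132. With a spread taken from the 10 libraries alone, Sst alone of these 6 genes passed (adjusted p = 0.019), Crh having an adjusted p of 0.0547 and Tac3 of 0.0991. Cck, which is also on the list, rose in that fit (log2 fold change 1.43, adjusted p = 0.0252). Th, tyrosine hydroxylase of catecholamine neurons and a member of the list, rose with DESeq2 (2.95, adjusted p = 0.0275) and with terms for group and batch over 65 libraries (3.17, adjusted p = 0.0272), beside 2.94 and 0.0588 in the fit reported. Th also rose without PYY3-36 rat 2 or 4 and with sham and saline as joint controls, and Galp without sham rat 7 (adjusted p = 0.0185). In the other direction, Pnoc and Grp of the same list fell without the 5 libraries low in Pmch. Their log2 fold changes were -1.098 and -1.309 (adjusted p = 0.0355 and 0.018), beside -0.864 and -0.536 in the fit reported (adjusted p = 0.213 and 0.49). Cck, Th, Galp, Pnoc and Grp were chosen after their values were seen. Against saline, Crh differed by -1.52 ± 0.48, adjusted p = 0.133, Tac3 by -1.25 ± 0.32, adjusted p = 0.0792 and Sst by -0.79 ± 0.35, adjusted p = 0.274.

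Of 15 arcuate feeding peptides and receptors tested, 3 rose (Insr, Lepr and Ntrk2) and 1 fell (Mc4r), with a median of 0.38. The shares over all genes tested were 6.31% and 7.75%. With the share of mitochondrial rRNA and tRNA as a covariate, 0 members of the list rose and 0 fell (median -0.302). Without PYY3-36 rat 1, 3 rose and 0 fell (median 0.001). Without the 5 libraries low in Pmch, 2 rose and 0 fell (median 0.102). In the family of the peptide, 5 of 8 genes could be tested, and edgeR called 0 of them (1 at an unadjusted p under 0.05, and 0 called by DESeq2). Npy measured 13, 14.2, 14.1 and 11 CPM in PYY3-36 rats, a narrow range inside that of the sham rats at 9.23 to 72.5 CPM (median 18.8) (log2 fold change -1.15 ± 0.53 (SE), adjusted p = 0.155). Npy2r, the receptor that PYY3-36 prefers, measured 12.5, 7.03, 10.8 and 9.83 CPM against 3.02 to 19.6 CPM (median 8.63) (log2 fold change 0.07 ± 0.33 (SE), adjusted p = 0.914). Npy1r measured 9.51 to 15.4 CPM against 9.72 to 23.2 (adjusted p = 0.543) and Npy5r 2.97 to 5.57 CPM against 2.13 to 8.34 (adjusted p = 0.5). Pyy reached at most 1.02 CPM in the 10 rats (adjusted p = 0.289) and was called lower without PYY3-36 rat 4 (log2 fold change -4.67, adjusted p = 0.0499), while Ppy, Npy4r and Npy6r were too low to be tested. A p past 0.05 does not show that these levels were alike.

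Agrp measured 9.94, 0.901, 4.58 and 0.142 CPM against 0.238 to 5.08 CPM (median 1.4), and Pomc 172, 2.97, 173 and 4.51 CPM against 3.47 to 142 CPM (median 26.7), with high and low rats in both groups (adjusted p = 0.472 and 0.608). Cartpt was lowest in rat 2 as well, with 176, 5.59, 163 and 60 CPM (adjusted p = 0.845). The peptides of single nuclei varied over the widest ranges. Pmch ran from 3.34 to 2344 CPM in sham and 1.35 to 907 CPM in PYY3-36 rats. In the same order, Hcrt ran from 0 to 305 and 15.2 to 89.3, Oxt from 0.0522 to 1943 and 5.32 to 929. Avp ran from 2.14 to 1856 and 2.79 to 1160, Trh from 12.5 to 356 and 1.8 to 138 and Ghrh from 0.417 to 8.31 and 0.586 to 5.79 CPM. None of the 6 passed the test (adjusted p from 0.507 to 0.987).

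Receptors that read leptin, insulin and melanocortins did give calls. Insr, the insulin receptor (chr12:1682527-1816414, minus strand), measured 10.9, 14.2, 14.4 and 13 CPM against 3.15 (lowest), 5.27 (median) and 7.72 (highest) CPM, without overlap (log2 fold change 1.31 ± 0.25 (SE), adjusted p = 0.00199). Lepr, the leptin receptor (chr5:120503475-120682281, plus strand), stood at 8.14, 2.88, 8.6 and 9.51 CPM against 0.843 (lowest), 1.92 (median) and 3.9 (highest) CPM (log2 fold change 1.83 ± 0.45 (SE), adjusted p = 0.0085), and rat 2 fell within the sham range. In saline rats Insr measured 6.99 to 13.1 CPM (median 7.23) and Lepr 2.6 to 9.65 CPM (median 3.84), and PYY3-36 over saline was 0.54 ± 0.26, adjusted p = 0.306 for Insr and 0.43 ± 0.46, adjusted p = 0.68 for Lepr. Mc4r, the melanocortin receptor that restrains feeding, fell, with 1.8, 1.53, 2.33 and 6.35 CPM against 5.11 (lowest), 6.37 (median) and 14.3 (highest) CPM (log2 fold change -1.34 ± 0.44 (SE), adjusted p = 0.0415). That call was lost without PYY3-36 rat 1, 2 or 3 or sham rat 6, 7 or 11 (adjusted p from 0.0512 to 0.138), and Mc3r was not called (adjusted p = 0.857). Ntrk2, the receptor of the satiety factor BDNF, rose by 1.3-fold (0.38 ± 0.11, adjusted p = 0.0218), except without PYY3-36 rat 2 (adjusted p = 0.0832).

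Downstream, 6 of 21 genes of insulin and PI3K-Akt signalling and 5 of 20 of leptin and JAK-STAT signalling rose and 0 fell, with medians of 0.23 and 0.28. Over all genes tested, 6.31% rose and 7.75% fell. Irs1, the docking protein of the insulin receptor, measured 3.21, 4.06, 5.14 and 4.83 CPM against 0.741 to 2.18 CPM (median 1.27) (log2 fold change 1.58 ± 0.28 (SE), adjusted p = 0.0014), with no overlap. Foxo3, a transcription factor that Akt keeps out of the nucleus, rose by 2.72-fold (1.44 ± 0.33, adjusted p = 0.0059). On the JAK-STAT side Pias1, an inhibitor of activated STAT (1.15 ± 0.20, adjusted p = 0.00126), Stat5b (0.98 ± 0.22, adjusted p = 0.00439) and Stat5a (0.52 ± 0.17, adjusted p = 0.0357) rose beside Lepr and Ptpn1. Stat5a was not called without PYY3-36 rat 1, 2 or 3 or sham rat 6, 9, 10 or 11 (adjusted p from 0.0562 to 0.116). With the mitochondrial share as a covariate, 0 of 21 and 1 of 20 passed.

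Among ion channels and transmitter receptors, sodium and calcium channels rose in 1 of 29 cases (median -0.032) and GABA receptor subunits in 1 of 17 (median -0.015). None of these fell, and 6.31% of all genes rose. Of 49 potassium channel genes, 9 rose, 7 of them by more than 2-fold, and 0 fell (median 0.21). Besides Kcnj10 they included Kcna1, a delayed rectifier of axons, at 5.44, 16.9, 10.7 and 10.3 CPM against 1.05 to 4.91 CPM (median 3.85) (log2 fold change 1.77 ± 0.42 (SE), adjusted p = 0.00672). Others were the G protein-gated channel Kcnj3 (1.5 ± 0.37, adjusted p = 0.00887) and the leak channel Kcnk9 (1.59 ± 0.42, adjusted p = 0.0137), which did not pass without PYY3-36 rat 4 (adjusted p = 0.0648). In saline rats Kcnk9 reached 10.1 to 33.8 CPM (median 11), within or above the PYY3-36 range of 8.38 to 19.2 CPM. With saline and sham as joint controls, 2 of the 49 passed.

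Nicotinic acetylcholine receptor subunits rose in 4 of 13 cases and fell in 0, beside 6.31% and 7.75% of all genes tested, with a median of 1.215. The median was 0.717 for saline over sham and 0.058 for PYY3-36 over saline. Habenula and thalamus are rich in some of these subunits, and their marker list itself includes Chrnb3 and Chrnb4. The summed list measured 475, 329, 435 and 354 CPM in PYY3-36 rats 1 to 4 and 140 to 367 CPM in sham rats. The part of these tissues in the result was not tested. Chrnb2, the common β subunit of brain, measured 20, 18.9, 29.7 and 33 CPM against 7.89 to 16.3 CPM (median 8.87) (log2 fold change 1.36 ± 0.30 (SE), adjusted p = 0.00489). Chrna5, Chrna6 and Chrnb3 measured at most 1.86 CPM in the sham rats and high in PYY3-36 rats 1 and 3, with Chrna6 at 19.8, 0, 26.7 and 1.17 CPM. Each of these 3 lost its call without PYY3-36 rat 1 (adjusted p from 0.0558 to 0.0574) or rat 3 (0.0556 to 0.0997). Chrna6 also lost it without sham rat 6 or 11, and Chrnb3 without any sham rat but 11. Glutamate receptor subunits rose in 5 of 25 cases, among them Grin3a (1.37 ± 0.36, adjusted p = 0.0121), Grik3 (1.83 ± 0.54, adjusted p = 0.0253) and Gria1 (0.87 ± 0.27, adjusted p = 0.0341). Grin3a did not pass without PYY3-36 rat 4 (adjusted p = 0.0579), Grik3 not without PYY3-36 rat 1, 3 or 4 or sham rat 6, 8, 10 or 11 (adjusted p from 0.0501 to 0.0668) and Gria1 not without PYY3-36 rat 2, 3 or 4 or sham rat 8, 9 or 11 (adjusted p from 0.0567 to 0.155). The study named serotonin and glycine receptors as higher in RYGB than in sham rats. It compared PYY3-36 with saline and reported no relevant differences there. Of those receptors, Glra3 was called here, at 0.782, 0.0901, 2.53 and 1.77 CPM against 0 to 0.672 CPM (median 0.121) (log2 fold change 2.69 ± 0.72 (SE), adjusted p = 0.015), but not without PYY3-36 rat 3 (adjusted p = 0.0742). Htr1b, Htr2a, Htr5a, Glra1 and Glra4 were not called (adjusted p from 0.159 to 0.627), nor were Tph2, Prlr and Mrap (adjusted p from 0.859 to 0.972).

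Immediate early genes gave 0 calls by edgeR among 31 tested (3 at an unadjusted p under 0.05, and 0 calls by DESeq2), with a median of -0.075 for PYY3-36 over sham and 0.42 for saline over sham. Among inflammatory genes, 2 of 19 rose, Tlr4, the receptor of bacterial lipopolysaccharide (1.44 ± 0.36, adjusted p = 0.0105), and Nfkb1 (0.32 ± 0.10, adjusted p = 0.0357), which did not pass without PYY3-36 rat 1, 3 or 4 or sham rat 6, 7, 8 or 10 (adjusted p from 0.0514 to 0.148). Circadian clock genes gave 1 call among 21, and serotonin receptors and thyroid hormone genes 0 among 12 each (2 and 3 at an unadjusted p under 0.05, and 1 and 2 calls by DESeq2). The counts at or under the background of 6.31% and 7.75% of all genes are no result about these lists.

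**Figure D5:**
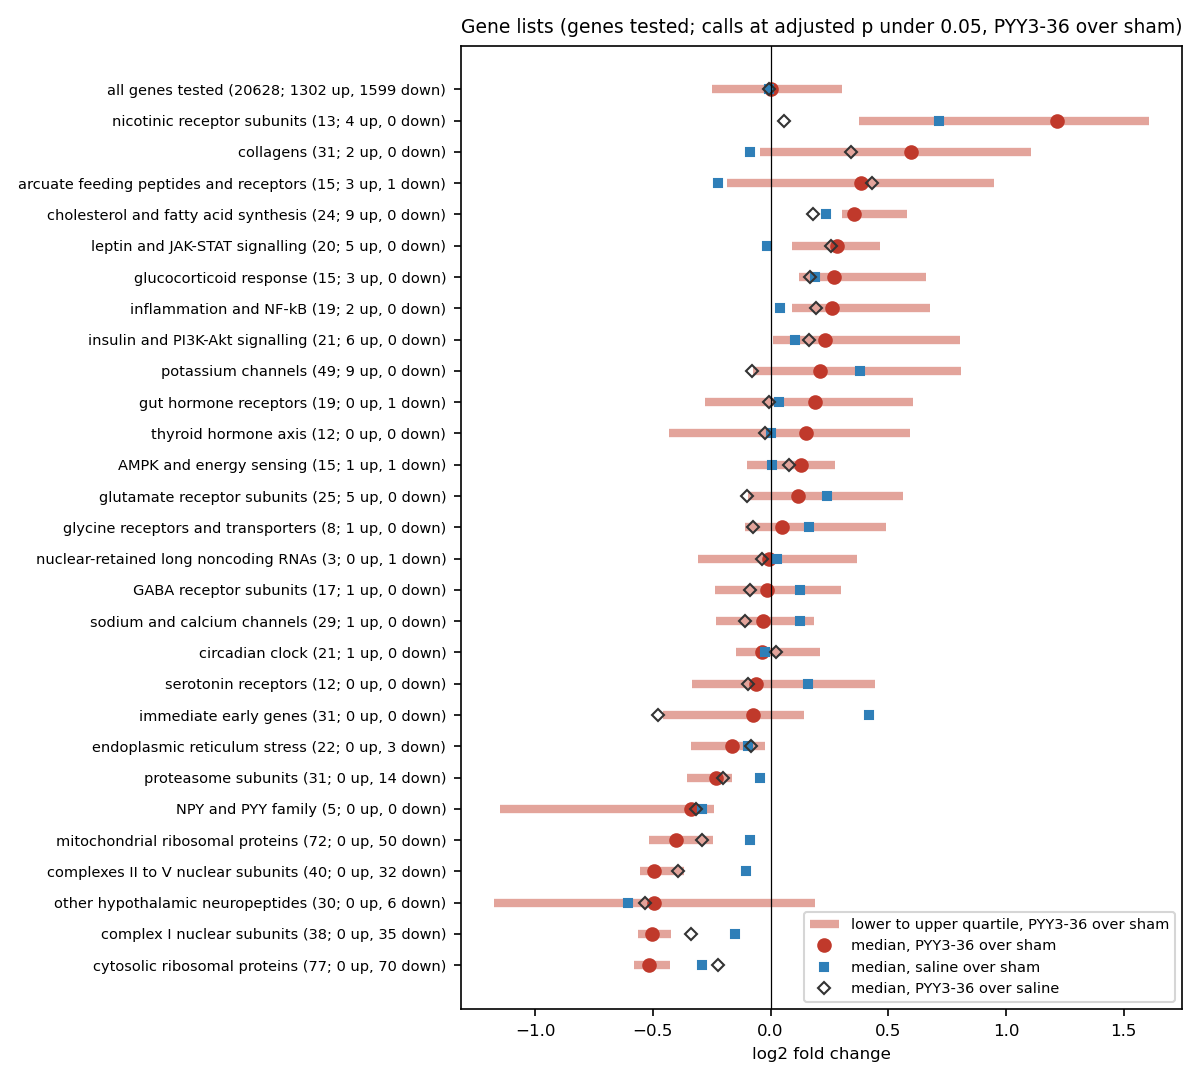
Median log2 fold change (x axis) of 28 gene lists and of all genes tested for PYY3-36 over sham (red circles, bar from the lower to the upper quartile), saline over sham (blue squares) and PYY3-36 over saline (open diamonds). Numbers in brackets give genes tested and calls up and down, and the 4 lists of ribosome and respiratory chain lie between -0.52 and -0.40 for PYY3-36 over sham.

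Few genes fell by more than 2-fold without overlap between the groups, and only 8 with a symbol of their own did. Besides Sst they were Myh7, a myosin heavy chain (-1.08 ± 0.27, adjusted p = 0.0109), Nmbr, the neuromedin B receptor, at 1.09, 0.946, 0.643 and 1.95 CPM against 2.02 to 4.96 CPM (median 2.42) (-1.23 ± 0.37, adjusted p = 0.0272), Slc24a1 (-1.17), Mroh6 (-1.33), Wisp3 (-1.17), RT1-M1-2 (-1.6) and Rn5-8s (-1.43). The last 2 are an MHC class I gene and a ribosomal RNA, both members of multicopy families, so their values are uncertain. Nmbr was not called without PYY3-36 rat 1, 2 or 3 or sham rat 8, Slc24a1 without PYY3-36 rat 1 or 2 or sham rat 6 or 10, and Mroh6 and Wisp3 without any of several single rats (adjusted p from 0.0505 to 0.136 over these fits). Of the 50 genes regulated downwards, 19 were annotated as long noncoding RNA (38%), beside 8.92% of all genes tested.

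The cell type and tissue markers are described next, beside 6.31% of all genes tested that rose and 7.75% that fell. Counts near or under these shares are no result about a list. Neuron markers fell in 1 of 13 cases (Gad1, -0.74 ± 0.21, adjusted p = 0.0178, not without PYY3-36 rat 2, adjusted p = 0.0705), astrocyte markers were called in 0 of 12 cases (3 at an unadjusted p under 0.05, and 1 by DESeq2), oligodendrocyte markers rose in 1 of 15, microglia markers in 1 of 12 and endothelial markers in 1 of 10. Summed meningeal markers ranged from 328 to 1215 CPM in PYY3-36 and from 139 to 1247 CPM in sham rats, and summed choroid plexus markers from 367 to 1455 and from 206 to 726 CPM. Summed astrocyte markers ranged from 8091 to 9234 CPM in PYY3-36 and from 6522 to 10490 CPM in sham rats. All 12 meningeal and all 12 choroid plexus markers had positive values (medians 1.38 and 1.28), of which 0 (2 at an unadjusted p under 0.05, and 0 by DESeq2) and 2 were called. Without sham rat 11, 6 meningeal fibroblast markers were called (median 2.20). Of the choroid plexus markers, 0 were called without PYY3-36 rat 2 (median 0.469) or without the 5 libraries low in Pmch, 1 without PYY3-36 rat 1 or 3 or sham rat 6, 8 or 9, and 3 without sham rat 10. Habenula and thalamus markers rose in 1 of 16 cases, with 12 positive values (median 0.555). Tanycyte and ependyma markers were called in 0 of 14 cases (median 0.333) and blood markers in 0 of 8 (median 0.1), with 0 of either at an unadjusted p under 0.05 or by DESeq2. Over saline, the tanycyte and ependyma median was 1.185. Hypothalamic nucleus transcription factors rose in 1 of 28 cases (median 0.05) and anterior pituitary markers in 2 of 9 (median 4.779). Of the pituitary markers, 0 were called without PYY3-36 rat 3 (median 2.121) and 0 by DESeq2. Cortical and hippocampal markers rose in 4 of 14 cases, led by Neurod6 at 9.47, 114, 3.82 and 4.72 CPM against 0.611 to 2.78 CPM (median 1.98), and without PYY3-36 rat 2 Neurod6 differed by 1.72 (adjusted p = 0.145). The list median was 1.554 for PYY3-36 over sham, 1.607 for saline over sham and -0.374 for PYY3-36 over saline. Its calls were 1 without PYY3-36 rat 2, and 3 to 5 without any other single rat of the 2 groups. They were 0 without the 5 libraries low in Pmch and 0 with all 65 libraries. The pituitary hormones Gh1 (0.196, 0, 310.1 and 0.390 CPM) and Prl (0, 0, 84.7 and 0.0710 CPM) were high in rat 3 alone, and without it Gh1 differed by -0.53 (adjusted p = 0.877). The part of these tissues in the other calls was not tested beyond the fits without single libraries.

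Among the groups of batch B other than sham, PYY3-36 stood apart in 3 of 20628 genes (0.0145%) when set against the mean of saline, liraglutide, PYY3-36 + liraglutide and RYGB. They were Gh1, LOC102550503 and Rab7b, and 2738 genes had an unadjusted p under 0.05, while DESeq2 found 9 genes over both thresholds. In the same fit, 326 genes were regulated in liraglutide, 557 in PYY3-36 + liraglutide and 607 in RYGB rats against the same 6 sham rats. Medians of Kcnj10 were 42.8 CPM in liraglutide, 38.7 in PYY3-36 + liraglutide and 64.1 in RYGB rats, beside 54.6 in PYY3-36 and 18.2 in sham rats. For Acaca they were 43.6, 47.2, 52.6, 50.7 and 19.9 CPM, and for Ndufa4 332, 332, 269.5, 274 and 429.9 CPM. For Crh they were 7.26, 8.71, 7.15, 2.53 and 11.7 CPM, the lowest being that of the PYY3-36 group. The difference of sham and saline between batch B and batch A was tested over 22207 genes, of which Nwd2 passed the test.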

How the data were processed

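RNA of whole rat hypothalamus was sequenced after poly-A selection (stranded TruSeq libraries). The authors trimmed reads with cutadapt (1.16 in the submitters' processing notes, several versions in the study's methods), mapped them to the Rnor_6.0 genome with STAR 2.7.2b and counted them per gene with featureCounts 1.6.4, with reads of several places or genes divided fractionally. What they deposited are thus estimated counts per gene, 30.3% of the values above 0 not being whole (tolerance 1e-06). They were rounded to whole counts here. The 28 libraries of batch B (6 groups) were fitted together in edgeR 4.0.16 (R 4.3.3) with 1 term per group, TMM scaling, a filter of 10 counts (filterByExpr) and robust quasi-likelihood dispersions, and p-values were adjusted by Benjamini-Hochberg over all genes tested. SE is the log2 fold change divided by the square root of F. Regulated genes passed 0.05 after adjustment and differed by more than 1 on the log2 scale. Rats were numbered as in the titles.

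Genes named by p value were the 12 with a symbol, no overlap between the groups and the smallest p in the upward direction and the 8 that met the same terms downwards. Beside them stand the leading called members of each list and the genes the study named in its RYGB comparisons. Members and gene lists were chosen with earlier results of these data known. Promoters came from RefSeq (GRCr8). Exact permutation tests used scipy 1.17.1, and scripts were tested on simulated counts. DESeq2 1.42.0 was an alternative, and DESeq2 adjusted p given as missing stayed missing. Alternatives with length-dependent scaling, with the share of mitochondrial rRNA and tRNA and without the 5 libraries with Pmch under 10 CPM were chosen after seeing the data. No pair of libraries within the PYY3-36, sham or saline group of batch B was close enough to be a duplicate. Batch A was used in the test of sham against saline between batches and in fits of all 65 libraries. Some genes are not reported here.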

Additional observations from a re-analysis of the deposited data

Results flagged for a closer look

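Among 212 groups of 4 or 6 rats examined for a sample far from the others, 31 held one. The cut-offs used flag about 1 in 20 for independent, normally distributed values. Here the genes share the same rats and some levels lie near 0 CPM, so no excess over that rate is read. PYY3-36 rat 2 was the distant sample in 8 of the 31 groups. It was highest for Megf9 (44.25 CPM), for the cortical genes Neurod6 (113.9 CPM), Neurod2 (25.96 CPM) and Slc17a7 (542 CPM), for the choroid plexus gene Kl (6.669 CPM), for the share of mitochondrial rRNA and tRNA (1.58%) and for the share of counts in the 10 most abundant genes (8.5%), and lowest for Sst (71.52 CPM). PYY3-36 rat 3 stood out in the pituitary genes Gh1 (310.1 CPM) and Prl (84.68 CPM), and rat 1 in Cga (110.1 CPM). PYY3-36 rat 4 stood out in Mc4r (6.353 CPM), Pyy (0.4614 CPM), Oxt (928.5 CPM), Rpl11 (211.9 CPM) and Mrps16 (25.59 CPM).

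In the sham group, rat 6 was distant for RT1-M1-2 (5.426 CPM), Mc4r (14.35 CPM), Gh1 (1.617 CPM) and Prl (0.3131 CPM). Rat 7 was distant for Stat5b (20.19 CPM), Chrnb2 (16.33 CPM), Ghrh (8.312 CPM) and Glra3 (0.6717 CPM), and rat 8 for Nmbr (4.957 CPM) and Stat5a (14.73 CPM). Rat 9 was highest for Chrna6 (1.856 CPM), Hcrt (305.4 CPM) and Pmch (2344 CPM), and rat 11 for Chrnb3 (0.3757 CPM) and Kl (1.08 CPM).

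The difference of sham from saline was not the same in the 2 batches for Nwd2, 1 of 22207 genes tested by an interaction term. On the log2 scale it was lower in batch B than in batch A by the value of -3.178 ± 0.552 (SE, adjusted p = 0.00807). In batch A, Nwd2 measured 9.13 to 51.8 CPM in sham and 14.4 to 18.8 CPM in saline rats, and in batch B 6.47 to 13.2 CPM and 20.8 to 160 CPM.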

How the results depend on the processing

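The 622 genes regulated in PYY3-36 over sham became 198 (193 up, 5 down) with DESeq2 and shrunken fold changes, 344 with all 65 libraries and a term per group and batch, 263 with the mean of sham and saline as controls and 30 with the share of mitochondrial rRNA and tRNA as a covariate. They ranged from 454 to 761 with single PYY3-36 or sham rats left out. The other 9 settings gave 442 to 741. Beside 1302 genes higher and 1599 lower at an adjusted p under 0.05, all 65 libraries gave 471 and 332, the covariate 82 and 60 and the length-dependent scaling 990 and 893. Saline over sham moved from 1 to 117 genes with DESeq2, to 2 without the 5 libraries low in Pmch, and from 1 to 120 with single rats left out (34 without sham rat 7, 5 without saline rat 6, 120 without saline rat 8). PYY3-36 over saline moved from 0 to 82 with DESeq2 and stayed at 0 with single rats left out. PYY3-36 over the mean of the other non-sham groups moved from 2 to 9 with DESeq2, and to 1 with length-dependent scaling or the covariate, and from 0 to 3 with single rats left out (0 without PYY3-36 rat 3). The difference between batches held 1 gene with DESeq2 size factors and with no filter on low counts too. The direction of Gh1 reversed without PYY3-36 replicate 3 (-0.53, adjusted p = 0.877), whose 310.1 CPM carry it. For the other changes the cause was not tested. Kcnj10, Axl, Acaca, Scd, Ndufa4 and Mrps16 kept an adjusted p under 0.05 in every setting tried. Levels under about 1 CPM, as for Pyy in most rats or Chrnb3 in the sham rats, rest on few reads. No paired analysis was possible because the PYY3-36 rats (1 to 4) and the sham rats of batch B (6 to 11) share no replicate number.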
